A study of Mus musculus with 24 samples.

Results

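The genes described here are 10 genes of T cells and natural killer (NK) cells, measured by RNA-seq in the bone marrow of wild-type (WT) and Nrf2-knockout (Nrf2-KO) mice after spaceflight: Cd3d, Cd3e, Cd3g, Cd8a, Nkg7, Gzma, Prf1, Klrd1, Ncr1 and Ccl5. They were chosen by symbol, by matching the Ensembl identifiers of the deposited table to GENCODE M21, and are 10 of its 54752 genes. Measured values played no part in the rule, although the genes were proposed with earlier results of these data known. All 10 had TPM (transcript abundance as a share of the library) above 1 in at least 1 library and were among the 12373 genes tested. Prf1 passed through 2 WT libraries only, so its pass depended on the groups in which it was higher.

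The study asked how Nrf2, a transcription factor that switches on antioxidant genes, shapes the response to spaceflight. Its mice were males on a C57BL/6 background. Those that flew were sent to the launch site at an age of 8 weeks, 3 weeks before launch, and the ground controls were kept in Japan. Flight WT (FL-WT) and flight Nrf2-KO (FL-KO) mice stayed in space for 31 days and were sampled 2 days after landing, whereas ground control WT (GC-WT) and ground control Nrf2-KO (GC-KO) mice were kept on the ground. Each group had 6 mice and each mouse gave 1 library from cryopreserved whole marrow, so T and NK cells were not sorted from the other cells. In bulk samples of this kind, fewer cells of a type and less RNA per cell cannot be told apart. By flow cytometry of cryopreserved marrow cells, the paper reports more frequent NK cells in both flight groups than in their ground groups. It reports that T-progenitor frequencies changed little. These are frequencies among live cells and were not compared with the RNA here. The knockout was carried by the whole animal, so it was not limited to lymphocytes.

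T cells recognise antigen through a receptor whose variable chains are held at the surface by the CD3 chains, encoded by Cd3d, Cd3e and Cd3g, and by the zeta chain, encoded by Cd247. CD8 is the co-receptor of cytotoxic T cells. Cytotoxic T cells and NK cells kill targets by releasing perforin (Prf1), which opens membranes, and granzymes such as granzyme A (Gzma), a serine protease, while NK cells choose their targets by the balance of inhibitory and activating receptors. Bone marrow holds resting memory T cells and is a site where NK cells mature.

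The promoters of 8 of the 10 genes were found in the RefSeq table for GRCm38.p6, as the 250 bases before and the 50 bases after a transcript start. The sequences of 5 are given because the results turn on them: the 3 CD3 genes, which make one complex and changed unequally, and Gzma and Prf1, whose products share a granule and which passed the adjusted p in opposite directions on the ground. The CD3 genes lie together on chromosome 9, with Cd3d and Cd3g starting 1355 bases apart on opposite strands and Cd3e 11401 bases beyond the end of Cd3d. From the end of Cd3g to the start of Cd3e the 3 genes span 40056 bases. The windows are chr9:44981536-44981835 (plus strand) for Cd3d, chr9:45009562-45009861 (minus strand) for Cd3e, chr9:44980382-44980681 (minus strand) for Cd3g, chr13:113100932-113101231 (minus strand) for Gzma and chr10:61297586-61297885 (plus strand) for Prf1. Each is written 5′ to 3′ on the strand of its gene, and capitals mark the letters of a motif on either strand.
Cd3d: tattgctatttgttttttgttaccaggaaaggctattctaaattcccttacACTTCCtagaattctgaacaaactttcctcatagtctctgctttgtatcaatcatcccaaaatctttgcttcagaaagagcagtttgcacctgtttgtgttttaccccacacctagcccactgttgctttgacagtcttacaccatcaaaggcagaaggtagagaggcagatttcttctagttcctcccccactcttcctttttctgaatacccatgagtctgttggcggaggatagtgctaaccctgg
Cd3e: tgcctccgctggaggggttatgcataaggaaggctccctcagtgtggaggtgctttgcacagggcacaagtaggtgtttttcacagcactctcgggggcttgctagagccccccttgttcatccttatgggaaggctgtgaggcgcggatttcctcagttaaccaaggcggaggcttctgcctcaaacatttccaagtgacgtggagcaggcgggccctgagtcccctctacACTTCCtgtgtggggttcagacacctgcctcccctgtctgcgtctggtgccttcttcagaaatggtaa
Cd3g: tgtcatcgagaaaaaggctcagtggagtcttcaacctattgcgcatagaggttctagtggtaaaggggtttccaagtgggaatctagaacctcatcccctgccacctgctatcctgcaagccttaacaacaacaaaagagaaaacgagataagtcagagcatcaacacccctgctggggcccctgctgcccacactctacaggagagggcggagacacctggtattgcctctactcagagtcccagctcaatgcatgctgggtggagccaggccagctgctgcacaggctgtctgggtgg
Gzma: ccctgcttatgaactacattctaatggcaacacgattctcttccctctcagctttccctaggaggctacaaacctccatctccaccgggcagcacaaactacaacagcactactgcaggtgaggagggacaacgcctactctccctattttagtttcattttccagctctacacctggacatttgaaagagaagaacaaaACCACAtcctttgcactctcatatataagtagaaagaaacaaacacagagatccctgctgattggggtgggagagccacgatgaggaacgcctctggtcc
Prf1: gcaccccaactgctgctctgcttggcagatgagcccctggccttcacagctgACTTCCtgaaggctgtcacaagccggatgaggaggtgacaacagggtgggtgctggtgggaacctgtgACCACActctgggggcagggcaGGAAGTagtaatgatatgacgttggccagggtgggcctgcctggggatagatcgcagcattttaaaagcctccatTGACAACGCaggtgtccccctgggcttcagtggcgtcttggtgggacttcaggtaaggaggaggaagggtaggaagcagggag
The promoters were searched on both strands for 4 motifs, the core of the antioxidant response element that Nrf2 binds (TGACNNNGC), a RUNX motif (TGTGGT), an ETS motif (GGAAGT) and a T-box motif (TCACAC). The antioxidant core was present in the Prf1 window alone among the 8 genes, against 12.4% of 32851 promoter windows of the same length. RUNX letters were present in 4 of the 8 (Nkg7, Gzma, Prf1 and Ncr1), against 16.8% of all windows. ETS letters were present in 3 of the 8 (Cd3d, Cd3e and Prf1), against 23.8%, and T-box letters in 2 of the 8 (Nkg7 and Ncr1), against 14.5%. The Cd3g window held none of the 4 motifs.

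The deposited values were TPM, and read counts were not used here, so the depth of a library is unknown and no counting error can be given. Nfe2l2, the gene of Nrf2, was at 21.3 ± 3.19 TPM in GC-WT against 4.97 ± 1.25 TPM in GC-KO mice, and at 18.6 ± 5.93 TPM in FL-WT against 3.06 ± 0.794 TPM in FL-KO mice (SD, n = 6), and no Nrf2-KO mouse reached any WT mouse of the same setting. The 5 small RNAs Rmrp, Rpph1, Rn7sk, Rn7s1 and Rn7s2 held 35.4% to 59.6% of TPM in the 24 libraries. Groups were compared by limma on a log2(TPM + 1) scale, which shrinks the changes of weakly expressed genes relative to their TPM ratios. Over all 12373 genes, the median log2 fold change of flight against ground was -0.24 for WT and -0.29 for Nrf2-KO mice, and that of Nrf2-KO against WT was -0.22 on the ground and -0.25 in flight, so changes of the 10 genes are also given relative to these medians. A differentially expressed gene (DEG) had a Benjamini-Hochberg adjusted p under 0.1 over all tested genes and at least a 2-fold change on this scale, and calls with the adjusted p alone are also given.

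The 10 genes were a small part of the marrow RNA and their levels spanned a wide range. Their sum was 91.6 ± 11.8 TPM in GC-WT and 73.0 ± 8.52 TPM in GC-KO mice, and 88.3 ± 22.0 TPM in FL-WT and 69.5 ± 8.69 TPM in FL-KO mice (SD, n = 6). By comparison, 8 neutrophil markers summed to 29840 TPM or more and 6 erythroid markers to 50741 TPM or more in each library. In GC-WT mice, Nkg7, a granule protein of cytotoxic cells, and Ccl5, a chemokine, were highest at 35.8 and 33.1 TPM, and their ranges overlapped. Next came Gzma at 5.34 TPM, whose highest mouse (9.09 TPM) was below the lowest for Ccl5 (21.9 TPM). Klrd1 (3.54 TPM), Cd3e (3.29 TPM), Cd3g (3.12 TPM), Ncr1 (2.54 TPM) and Cd3d (2.50 TPM) followed with overlapping ranges. Cd8a was at 1.5 TPM, and Prf1 was lowest at 0.843 TPM with no mouse above 1.05 TPM. Ptcra, which marks immature thymocytes, did not exceed 0.03 TPM in any library.

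**Figure D1:**
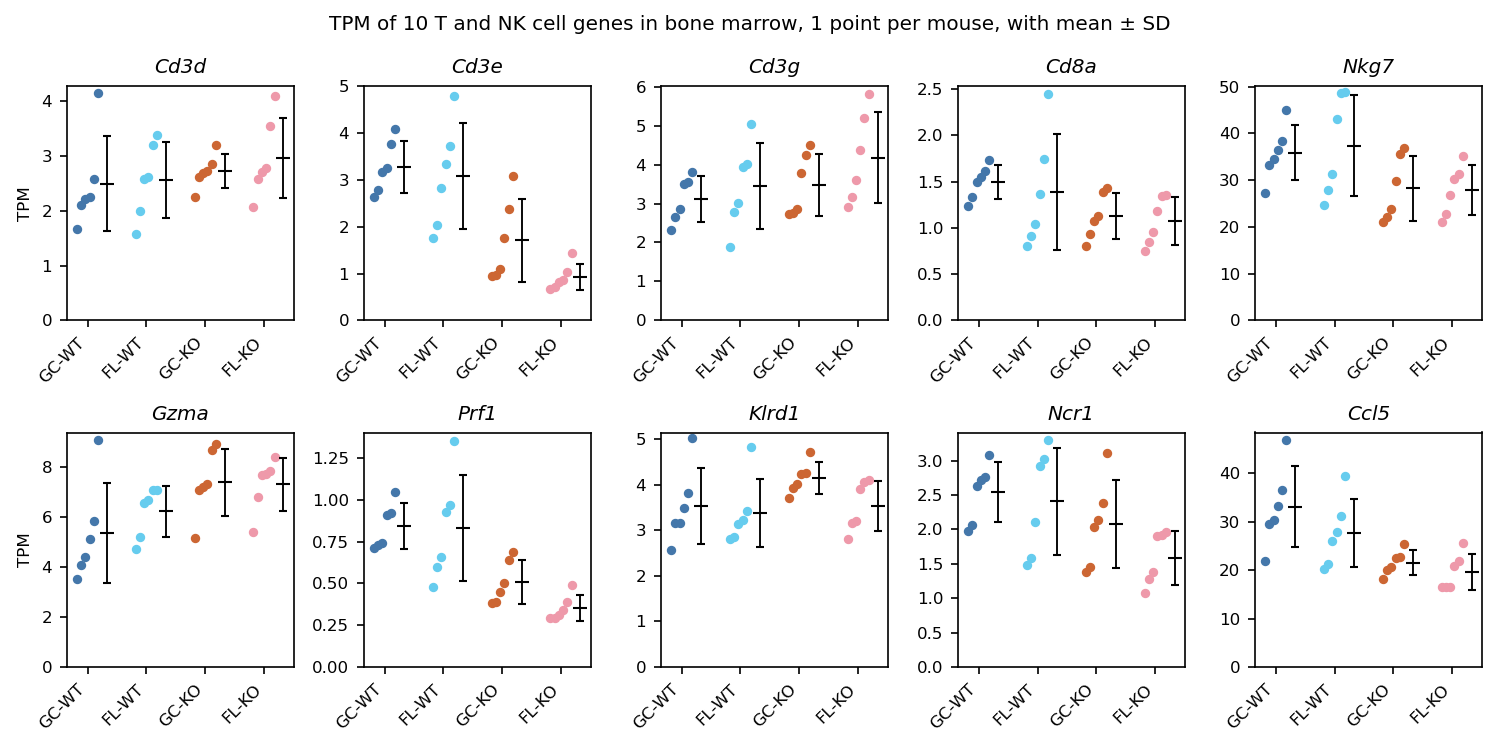
TPM (vertical axes, from 0) of each of the 10 genes in the 6 mice of each group (horizontal axes). Points are mice, sorted within a group, and bars give the mean ± SD. For Cd3e all FL-KO mice lie at or under 1.44 TPM and all FL-WT mice at or above 1.75 TPM, whereas the Cd3d and Cd3g points of all 4 groups overlap.

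Loss of Nrf2 was compared with WT in ground mice and in flight mice, to ask which genes depend on Nrf2. Cd3e, the CD3 epsilon chain, was the one gene of the 10 to be called a DEG, and only in FL-KO vs. FL-WT, where its mean was 3.33-fold lower. On the ground, 0 of the 10 were DEGs, against 3.04% of all tested genes called lower and 0.129% called higher. The exact rank sum test with the same fold threshold also called 0. By limma, 4 of the 10 had an unadjusted p under 0.05. The share of all genes at that unadjusted threshold was not counted, here or for the same counts below, so these counts have no background. In flight, 1 of the 10 was a DEG that was lower, against a background of 8.36%, and 0 were higher, against 0.0970%. By the adjusted p alone, 3 of the 10 were lower in GC-KO mice (Cd3e, Prf1 and Ccl5; background 42.9%) and Gzma was higher (background 3.13%). In FL-KO mice, 5 of the 10 were lower (Cd3e, Nkg7, Prf1, Ncr1 and Ccl5; background 47.2%) and 0 were higher (background 1.91%). With median-of-ratios scaling between libraries, Cd3e and Prf1 were lower in both settings (backgrounds 28.9% on the ground and 32.9% in flight) and Cd3d, Cd3g, Gzma and Klrd1 were higher in both (backgrounds 28.3% and 31.9%). After each library's trend over transcript GC content and length was removed, 5 of the 10 were lower on the ground (background 48.3%) and 7 in flight (background 60.4%), and none was higher (backgrounds 1.48% and 1.90%). The median log2 fold change of the 10 with TPM as deposited was -0.23 on the ground and -0.28 in flight, each within 0.1 of the median of all genes. In each comparison 5 of the 10 lay above that median. Relative to it, Cd3e was at -0.49 on the ground and -0.80 in flight, Prf1 at -0.070 and -0.17, and Ccl5 at -0.34 and -0.20. Nkg7 was at -0.13 and -0.13, Ncr1 at 0.0032 and -0.13, and Cd8a at -0.016 and 0.076. Cd3d was at 0.34 and 0.41, Cd3g at 0.34 and 0.48, Gzma at 0.66 and 0.45, and Klrd1 at 0.42 and 0.31.

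Flight was compared with ground control within each genotype, to ask which genes respond to spaceflight. The paper reports that flight and ground mice could not be sampled in the same place. Flight, landing and the place of sampling therefore cannot be told apart in these comparisons. None of the 10 was a DEG in FL-WT vs. GC-WT, against 0.938% of all genes lower and 0.0647% higher, and none had an adjusted p under 0.1, against 39.0% lower and 0.994% higher. By limma, 0 of the 10 had an unadjusted p under 0.05, and the exact rank sum test called 0. For Nrf2-KO mice, 0 of the 10 were DEGs by limma or by the rank sum test, against 2.13% lower and 0% higher. Cd3e alone passed the adjusted p there, as lower (background 53.1%), with 1 of the 10 at an unadjusted p under 0.05, and 0 were higher (background 0.299%). While most genes had lower TPM in flight, 9 of the 10 lay above the median of all genes in each flight comparison. Relative to that median, their log2 fold changes ran from -0.0066 for Ccl5 to 0.47 for Gzma in WT mice, and from -0.16 for Cd3e to 0.49 for Cd3g in Nrf2-KO mice. With median-of-ratios scaling, which moves the median of all genes to between -0.0012 and 0.025, Cd3d, Cd3g, Nkg7 and Gzma were higher in FL-WT mice (background 20.6%) and these genes and Cd8a were higher in FL-KO mice (background 19.1%) by the adjusted p, while none was lower (backgrounds 13.6% and 20.4%). With the GC and length trend removed, none was higher in either flight comparison (backgrounds 0.453% and 0.194%). Klrd1 and Ccl5 were then lower in FL-WT mice (background 39.0%) and Cd3e, Gzma, Klrd1 and Ncr1 in FL-KO mice (background 59.9%). That setting left the median of all genes at -0.23 in WT and -0.31 in Nrf2-KO mice. Cd3d, Cd3g, Cd8a, Nkg7 and Prf1 lay above that median in both flight comparisons, and Klrd1 and Ncr1 lay below it in both. Cd3e, Gzma and Ccl5 lay on different sides of it in the comparisons. The sign of a flight change for these genes thus depends on the scaling, and the settings differ in where they place all genes.

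**Figure D2:**
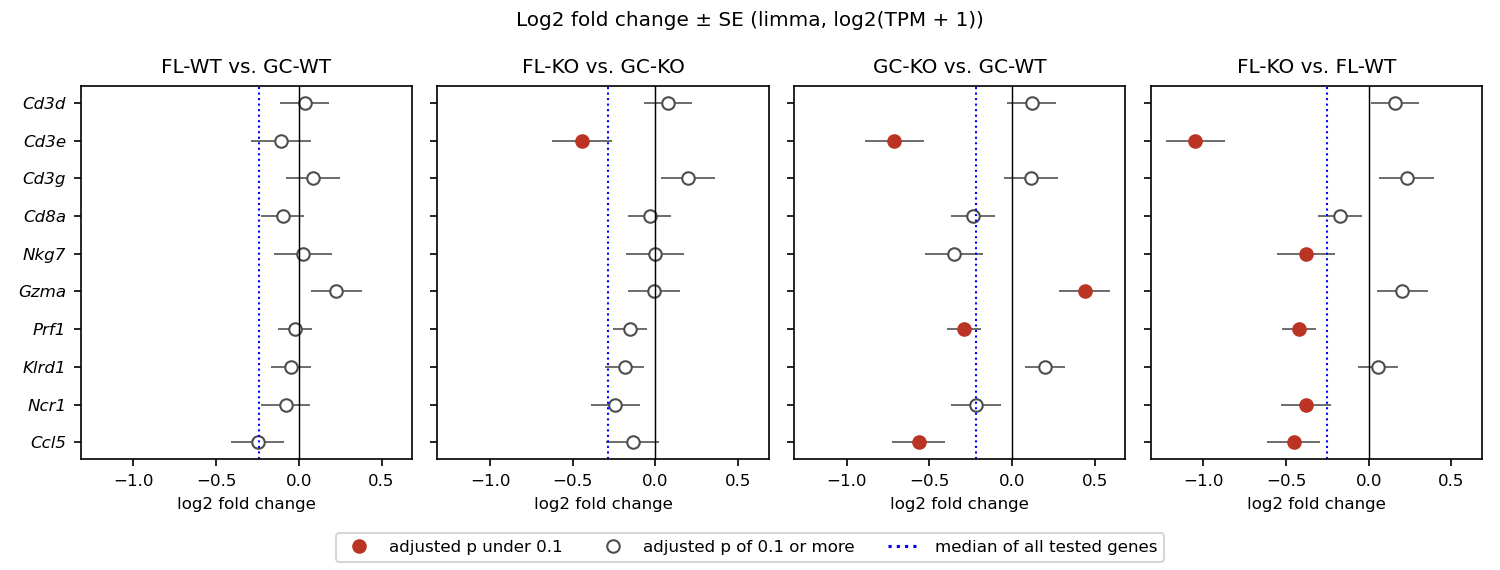
Log2 fold changes on the log2(TPM + 1) scale (horizontal axis) of the 10 genes (vertical axis) in 4 comparisons, with bars for the SE. Filled points have a limma adjusted p under 0.1, and the dotted line is the median of all tested genes. Cd3e lies furthest to the left in both comparisons of Nrf2-KO with WT (-0.71 and -1.05), while Cd3d and Cd3g stay right of 0.

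Cd3e (ENSMUSG00000032093.7; GRCm38 chromosome 9, 44998740 to 45009627, minus strand) encodes the CD3 chain that pairs with either of the other CD3 chains and is required for the receptor to assemble. Its TPM in GC-WT mice ran from 2.64 through a median of 3.22 to 4.09, and in GC-KO mice from 0.94 through 1.44 to 3.08. Of the 6 GC-KO mice, 5 were below every GC-WT mouse, and GC-KO mouse 11, at 3.08 TPM, was inside the WT range. The log2 fold change was -0.71 with an SE of 0.18 (limma adjusted p = 0.00286; exact rank sum permutation, two-sided, p = 0.00866). In flight the WT mice ran from 1.75 through 3.08 to 4.80 TPM and the Nrf2-KO mice from 0.68 through 0.845 to 1.44 TPM. All 6 FL-KO mice were below all 6 FL-WT mice, which held for 20.6% of all tested genes. The log2 fold change was -1.05 with an SE of 0.18 (limma adjusted p = 3.33e-05; exact permutation p = 0.00216, the smallest that 6 mice against 6 allow), or -0.80 relative to all genes. Median-of-ratios scaling gave -0.83 and quantile normalization -0.75, short of 2-fold in both, and -1.22 after removal of the trend with GC content and transcript length. Leaving out FL-WT mouse 7 or mouse 8 gave -0.94 and -0.997, also short of 2-fold, with limma adjusted p of 0.000151 and 0.000174. Between ground and flight, Cd3e was lower in FL-KO than in GC-KO mice by the adjusted p alone (-0.44, SE 0.18, limma adjusted p = 0.0476; exact permutation p = 0.0411). That adjusted p rose to 0.164 without GC-KO mouse 11, 0.122 without GC-KO mouse 12 and 0.101 without FL-KO mouse 2, and to 0.20 with median-of-ratios scaling.

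Cd3d and Cd3g encode the delta and gamma chains that pair with CD3 epsilon, and neither passed the test in Nrf2-KO against WT mice with TPM as deposited. Cd3d (ENSMUSG00000032094.8; chromosome 9, 44981786 to 44987339, plus strand) ran from 1.66 through a median of 2.23 to 4.15 TPM in GC-WT mice and from 2.26 through 2.71 to 3.2 TPM in GC-KO mice. Under flight it ran from 1.57 through 2.6 to 3.39 TPM in WT mice and from 2.07 through 2.75 to 4.09 TPM in Nrf2-KO mice, so the groups overlapped throughout. Its log2 fold change was 0.12 (SE 0.15, limma adjusted p = 0.557) on the ground and 0.16 (SE 0.15, limma adjusted p = 0.416) in flight. Cd3g (ENSMUSG00000002033.14; chromosome 9, 44969572 to 44980431, minus strand) ran from 2.31 through 3.19 to 3.8 TPM in GC-WT and from 2.74 through 3.32 to 4.50 TPM in GC-KO mice. In flight it ran from 1.89 through 3.48 to 5.04 TPM in WT and from 2.90 through 3.98 to 5.82 TPM in Nrf2-KO mice. Here too the groups overlapped, with log2 fold changes of 0.12 (SE 0.16, limma adjusted p = 0.614) on the ground and 0.23 (SE 0.16, limma adjusted p = 0.281) in flight. With median-of-ratios scaling both genes passed the adjusted p as higher in Nrf2-KO mice, with 0.34 and 0.36 on the ground and 0.48 and 0.57 in flight for Cd3d and Cd3g. Without the 5 small RNAs both passed as higher in flight, with 0.26 (adjusted p = 0.0737) for Cd3d and 0.34 (adjusted p = 0.0523) for Cd3g. With the GC content and length trend removed, the values on the ground and in flight were -0.0097 and -0.0041 for Cd3d and -0.25 and -0.22 for Cd3g, with adjusted p from 0.27 to 0.98.

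The CD3 genes were also compared inside each library, where a ratio of 2 genes does not depend on scaling between libraries. These ratios were chosen after the values were seen and are given without a test. The ratio of Cd3e to Cd3d TPM was 1.42 ± 0.375 in GC-WT and 0.608 ± 0.250 in GC-KO mice, and 1.18 ± 0.177 in FL-WT and 0.319 ± 0.0807 in FL-KO mice (SD, n = 6). Its highest FL-KO value, 0.406, was below the lowest FL-WT value, 1.02, whereas the ground groups overlapped through GC-WT mouse 10, at 0.672. The ratio of Cd3e to Cd3g was 1.07 ± 0.170, 0.466 ± 0.136, 0.900 ± 0.189 and 0.228 ± 0.0560 in the same order of groups, and neither pair of genotypes overlapped. The ratio of Cd3g to Cd3d was 1.3 ± 0.227, 1.27 ± 0.187, 1.34 ± 0.211 and 1.42 ± 0.276, with overlap throughout. The GC content and length of the longest transcript were close for Cd3e (50.55% and 1462 bases) and Cd3d (50.03% and 1617 bases), while Cd3g had 47.12% and 1023 bases. How the upstream estimation shared reads among the transcripts of each gene was not tested.

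**Figure D3:**
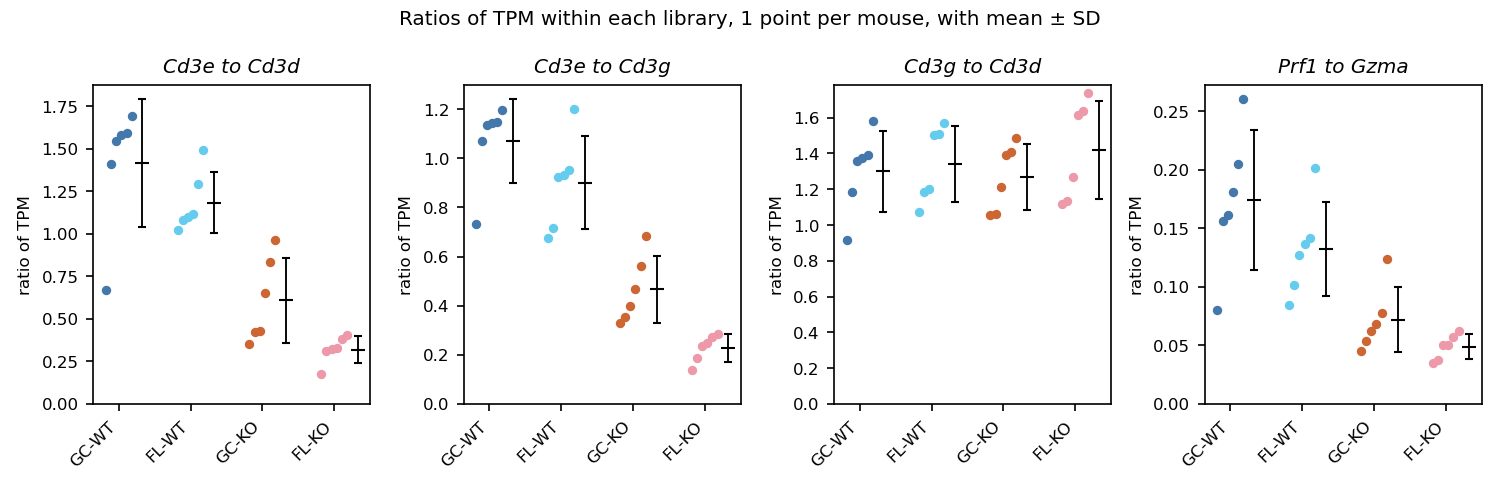
Ratios of TPM within each library (vertical axes, from 0) for 4 pairs of genes in the 4 groups (horizontal axes). Points are mice, sorted within a group, and bars give the mean ± SD. The ratio of Cd3e to Cd3d has a mean of 1.18 in FL-WT and 0.319 in FL-KO mice, the ratio of Cd3g to Cd3d stays between means of 1.27 and 1.42, and the ratio of Prf1 to Gzma is at 0.132 and 0.0488 in FL-WT and FL-KO mice.

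Cd8a (ENSMUSG00000053977.13, chromosome 6, 71373427 to 71379173, plus strand), the alpha chain of the CD8 co-receptor, did not pass the limma test in any comparison with TPM as deposited. It ran from 1.24 through a median of 1.52 to 1.73 TPM in GC-WT and from 0.80 through 1.10 to 1.43 TPM in GC-KO mice, and 4 of the 6 GC-KO mice were below every GC-WT mouse. The log2 fold change on the ground was -0.24 (SE 0.13, limma adjusted p = 0.160, exact permutation p = 0.0260), or -0.016 relative to all genes. Without the 5 small RNAs it was -0.38 (limma adjusted p = 0.0161), or -0.031 relative to all genes under that setting. In flight, WT mice ran from 0.81 through 1.21 to 2.45 TPM and Nrf2-KO mice from 0.75 through 1.07 to 1.36 TPM, with overlap and a log2 fold change of -0.17 (SE 0.13, limma adjusted p = 0.307).

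Prf1 (ENSMUSG00000037202.6; chromosome 10, 61297833 to 61304680, plus strand), the gene of perforin, was lower in Nrf2-KO mice on the ground and in flight by the adjusted p. It ran from 0.71 through a median of 0.825 to 1.05 TPM in GC-WT mice and from 0.38 through 0.475 to 0.69 TPM in GC-KO mice. All 6 GC-KO mice were below all 6 GC-WT mice, which held for 9.15% of all tested genes. The ratio of the means was 1.66-fold, and the log2 fold change, on a scale that compresses such low values, was -0.29 (SE 0.10, limma adjusted p = 0.0274; exact permutation p = 0.00216). In flight, WT mice ran from 0.48 through 0.795 to 1.35 TPM and Nrf2-KO mice from 0.29 through 0.325 to 0.49 TPM, overlapping only where FL-KO mouse 11 (0.49 TPM) passed FL-WT mouse 6 (0.48 TPM). The means differed 2.36-fold, with a log2 fold change of -0.42 (SE 0.10, limma adjusted p = 0.00146; exact permutation p = 0.00433). With a pseudocount of 0.1 in place of 1 the log2 fold changes were -0.65 and -0.99. After removal of the trend with GC content and transcript length they were -0.13 (adjusted p = 0.254) and -0.20 (adjusted p = 0.0563). Relative to all genes with that trend removed, they were 0.13 and 0.13. The TPM levels of Prf1 are near the filter of 1 TPM, which only 1 GC-WT and 1 FL-WT library passed.

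Gzma (ENSMUSG00000023132.8; chromosome 13, 113093825 to 113100981, minus strand), the gene of granzyme A, had higher TPM in ground Nrf2-KO mice than in their WT controls. It ran from 3.53 through a median of 4.76 to 9.09 TPM in GC-WT and from 5.17 through 7.27 to 8.90 TPM in GC-KO mice. The groups overlapped, and the highest of these 12 values was that of GC-WT mouse 10. Its log2 fold change was 0.44 (SE 0.16, limma adjusted p = 0.0268, exact permutation p = 0.0931), or 0.66 relative to all genes. With the GC content and length trend removed it turned to -0.044 (adjusted p = 0.807). The median of all genes was then -0.26, and relative to it Gzma was at 0.21. The FL-WT mice ran from 4.73 through 6.62 to 7.09 TPM and the FL-KO mice from 5.40 through 7.69 to 8.38 TPM. Of the 6 FL-KO mice, 4 were above every FL-WT mouse. The log2 fold change was 0.20 (SE 0.16, limma adjusted p = 0.317), or 0.45 relative to all genes. With that trend removed it turned to -0.38 (adjusted p = 0.0213). The median of all genes was then -0.33, and relative to it Gzma was at -0.048. Without the 5 small RNAs the value in flight was 0.30 (adjusted p = 0.0994). In FL-WT vs. GC-WT the log2 fold change was 0.23 (SE 0.16, limma adjusted p = 0.260), and without GC-WT mouse 10 it was 0.37 (adjusted p = 0.0410). The ratio of Prf1 to Gzma within a library was 0.174 ± 0.0596 in GC-WT and 0.0718 ± 0.0279 in GC-KO mice, and 0.132 ± 0.0405 in FL-WT and 0.0488 ± 0.0109 in FL-KO mice (SD, n = 6). The transcripts of these genes differ in GC content, with 53.56% for Prf1 and 44.08% for Gzma, and the part of that difference in the ratio was not tested.

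Nkg7 (ENSMUSG00000004612.9; chromosome 7, 43437073 to 43438249, plus strand) encodes a membrane protein of cytotoxic granules. It ran from 27.3 through a median of 35.5 to 45.05 TPM in GC-WT and from 21.0 through 26.9 to 36.8 TPM in GC-KO mice. In flight it ran from 24.6 through 37.2 to 48.7 TPM in WT and from 21.0 through 28.5 to 35.2 TPM in Nrf2-KO mice. All groups overlapped, although 3 of the 6 GC-KO mice were below every GC-WT mouse and 2 of the 6 FL-KO mice below every FL-WT mouse. The log2 fold change was -0.35 (SE 0.18, limma adjusted p = 0.116) on the ground and -0.38 (SE 0.18, limma adjusted p = 0.0820) in flight. The call in flight was lost, with adjusted p from 0.118 to 0.216, without FL-WT mouse 7, 8 or 10 or FL-KO mouse 1, 2 or 4. With median-of-ratios scaling the value in flight was 0.011 (adjusted p = 0.928). On the ground a call was gained, with adjusted p from 0.0585 to 0.0642, without GC-KO mouse 11 or 12 or GC-WT mouse 3. That call was also gained without the 5 small RNAs (-0.47, adjusted p = 0.00576) and with the GC and length trend removed (-0.52, adjusted p = 0.0282).

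Klrd1 and Ncr1 are receptors of NK cells. Klrd1 encodes CD94, which pairs with NKG2 proteins, and Ncr1 encodes the activating receptor NKp46. Klrd1 (ENSMUSG00000030165.16; chromosome 6, 129591782 to 129598775, plus strand) ran from 2.57 through a median of 3.33 to 5.03 TPM in GC-WT and from 3.72 through 4.12 to 4.72 TPM in GC-KO mice. In flight it ran from 2.81 through 3.19 to 4.84 TPM in WT mice and from 2.81 through 3.56 to 4.11 TPM in Nrf2-KO mice, and all groups overlapped. Its log2 fold change was 0.20 (SE 0.12, limma adjusted p = 0.204) on the ground and 0.058 (SE 0.12, limma adjusted p = 0.744) in flight. With 35.8% GC, its transcript had the lowest GC content of the 10, and after removal of the trend with GC content and transcript length the values turned to -0.59 (adjusted p = 0.00167) and -0.78 (adjusted p = 2.64e-05). Relative to all genes under that setting they were -0.33 and -0.45. Klrd1 was called in the opposite direction, as higher in Nrf2-KO mice, with median-of-ratios scaling (0.45, adjusted p = 0.00383, and 0.37, adjusted p = 0.00995) and with quantile normalization (0.51, adjusted p = 0.00204, and 0.47, adjusted p = 0.00245). Without GC-WT mouse 10, the value on the ground was 0.28 (adjusted p = 0.0524). Ncr1 (ENSMUSG00000062524.4; chromosome 7, 4337724 to 4345164, plus strand) ran from 1.98 through 2.68 to 3.09 TPM in GC-WT and from 1.38 through 2.08 to 3.11 TPM in GC-KO mice. In flight it ran from 1.49 through 2.52 to 3.30 TPM in WT mice and from 1.07 through 1.65 to 1.96 TPM in Nrf2-KO mice, and 3 of the 6 FL-KO mice were below every FL-WT mouse. Nrf2-KO against WT gave a log2 fold change of -0.22 (SE 0.15, limma adjusted p = 0.268) on the ground and -0.38 (SE 0.15, limma adjusted p = 0.0423; exact permutation p = 0.0649) in flight. In flight the adjusted p was 0.104 to 0.117 without FL-WT mouse 7, 8 or 10 or FL-KO mouse 4, and 0.298 with median-of-ratios scaling. With the GC and length trend removed, Ncr1 was at -0.60 (adjusted p = 0.00705) on the ground, a call gained, and at -0.85 (adjusted p = 0.000206) in flight, and without the 5 small RNAs the value on the ground was -0.36 (adjusted p = 0.0347). Between GC-KO and FL-KO mice a call of Ncr1 as lower was gained without GC-KO mouse 1 (-0.31, adjusted p = 0.0945).

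Ccl5 (ENSMUSG00000035042.2; chromosome 11, 83525778 to 83530518, minus strand) encodes RANTES, a chemokine that memory T cells and NK cells hold ready and that draws in further leukocytes. It ran from 21.9 through a median of 31.8 to 46.9 TPM in GC-WT and from 18.2 through 21.6 to 25.3 TPM in GC-KO mice. Of the 6 GC-KO mice, 3 were below every GC-WT mouse, and the overlap rested on GC-WT mouse 10, the lowest WT mouse. The means differed 1.53-fold, with a log2 fold change of -0.57 (SE 0.16, limma adjusted p = 0.00677; exact permutation p = 0.0152). In flight it ran from 20.2 through 26.9 to 39.4 TPM in WT mice and from 16.5 through 18.7 to 25.6 TPM in Nrf2-KO mice, with overlap and a log2 fold change of -0.45 (SE 0.16, limma adjusted p = 0.0222; exact permutation p = 0.0411). With median-of-ratios scaling these values were -0.24 (adjusted p = 0.240) and -0.066 (adjusted p = 0.751). Without the 5 small RNAs the value in flight was -0.38 (adjusted p = 0.105). Between GC-WT and FL-WT mice a call of Ccl5 as lower was gained without FL-WT mouse 7 (-0.36, adjusted p = 0.0580) or GC-WT mouse 10 (-0.36, adjusted p = 0.0776).

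The Nrf2-KO changes differed in how far they depended on scaling. Cd3e was lower in Nrf2-KO mice by the adjusted p on the ground and in flight with TPM as deposited, median-of-ratios scaling, quantile normalization, TPM without the 5 small RNAs and the GC content and length trend removed. Prf1 was lower in both with the first 4 of these settings and in flight alone with the last. Relative to all genes under that last setting, Prf1 was at 0.13 on the ground and 0.13 in flight, so it fell less than the median gene. It was tested only because 2 WT libraries exceeded 1 TPM, so its pass depended on the groups in which it was higher. Across the 10 genes, the log2 fold change was lower where the GC content of the transcript was higher, with Spearman's rho of -0.82 on the ground and -0.71 in flight over the 10 genes, and -0.43 and -0.52 over 12311 genes. These are descriptions across genes that share the same libraries.

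**Figure D4:**
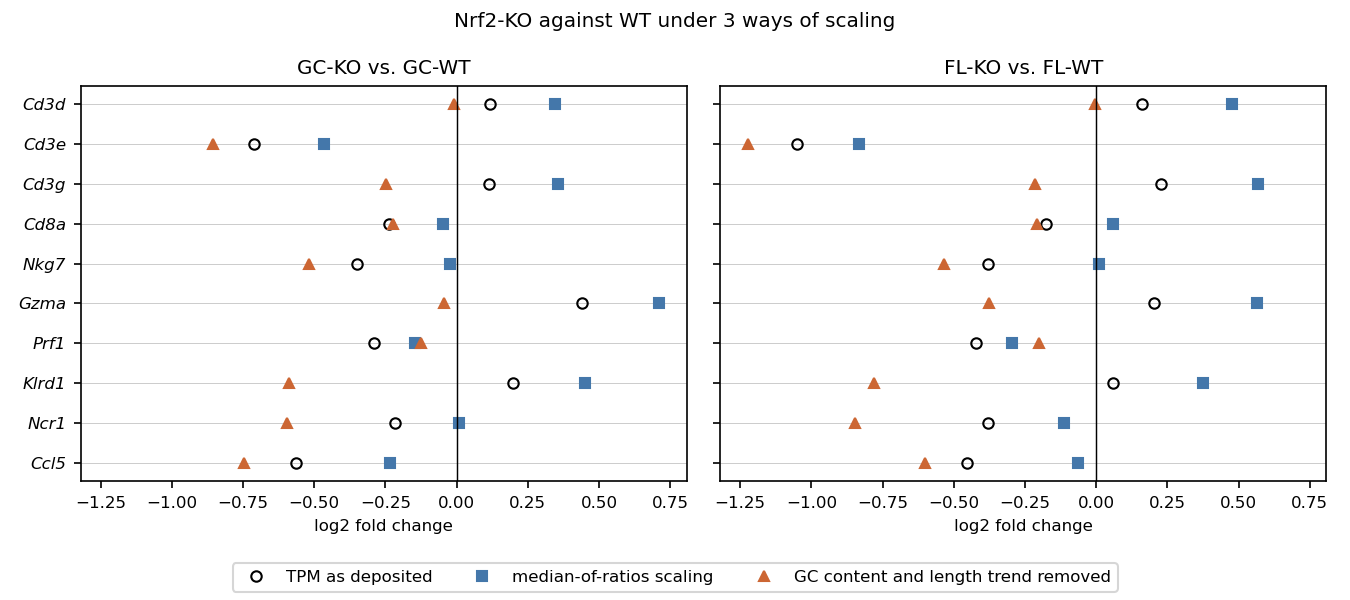
Log2 fold changes (horizontal axes) of the 10 genes (vertical axis) in Nrf2-KO against WT mice, for ground and for flight, with TPM as deposited (circles), with median-of-ratios scaling (squares) and with each library's trend over GC content and transcript length removed (triangles). Cd3e stays at or left of -0.46 in all 6 positions, whereas Gzma and Klrd1 lie right of 0 with the first 2 and left of 0 with the third. With the third, the median of all genes is -0.26 on the ground and -0.33 in flight.

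Whether flight acted differently in the genotypes was asked with the interaction of flight and genotype. None of the 10 genes passed by limma, with an adjusted p of 1 for each and 0 of the 10 at an unadjusted p under 0.05. The estimate furthest from 0 was that of Cd3e, at -0.34 with an SE of 0.25, whose size is near its error. A difference between genotypes in the flight response was thus not detectable for these genes with 6 mice per group.

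Other genes of T and NK cells were taken from 9 lists by function, with 105 genes, of which 102 were in the table and 80 were tested. On the ground, 39 of the 80 were lower in Nrf2-KO mice and 0 higher by the adjusted p (backgrounds 42.9% and 3.13%). In flight 38 were lower and 0 higher (backgrounds 47.2% and 1.91%). With median-of-ratios scaling 28 were lower and 15 higher on the ground (backgrounds 28.9% and 28.3%). Under that scaling 28 were lower and 19 higher in flight (backgrounds 32.9% and 31.9%). With the GC and length trend removed, 46 were lower on the ground and 57 in flight (backgrounds 48.3% and 60.4%). None was higher there (backgrounds 1.48% and 1.90%), so the absence of higher calls depends on the scaling. The median log2 fold changes of the 80 genes with TPM as deposited, -0.29 and -0.26, were near those of all genes. Of flight against ground, 11 were lower and 2 higher in WT mice (backgrounds 39.0% and 0.994%). In Nrf2-KO mice 17 were lower and 1 higher in flight (backgrounds 53.1% and 0.299%). With median-of-ratios scaling these counts were 4 lower and 23 higher in WT mice (backgrounds 13.6% and 20.6%). They were 4 lower and 22 higher in Nrf2-KO mice (backgrounds 20.4% and 19.1%). Among the 80 tested genes the lists held 2 DEGs on the ground and 8 in flight, all lower. Of all tested genes, 3.04% and 8.36% were DEGs that were lower in these comparisons. With median-of-ratios scaling, 0 of the 2 and 4 of the 8 (Zbtb7b, Il2rb, Runx3 and Unc13d) kept a fold change of at least 2, and with the GC and length trend removed, 1 of the 2 (Il2rg) and 2 of the 8 (Zbtb7b and Il2rg) did. All of them passed the adjusted p as lower under both settings. The lists differed among themselves in their counts, and the difference between lists was not tested.

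The other chains of the T cell receptor did not fall together. Of 6 tested chains and co-receptors, 2 were lower on the ground and 1 in flight (backgrounds 42.9% and 47.2%). The gene lower in both was Cd4, the co-receptor of helper T cells, with log2 fold changes of -0.33 and -0.26 (limma adjusted p = 0.0338 and 0.0796), neither of which passed with median-of-ratios scaling (adjusted p = 0.104 and 0.290) or with the GC and length trend removed (adjusted p = 0.299 and 0.719). Trbc2 and Trbc1, the constant regions of the receptor beta chain, were at 12.9 ± 3.32 and 4.84 ± 1.72 TPM in GC-WT mice and at 14.4 ± 1.3 and 5.03 ± 0.910 TPM in GC-KO mice (SD, n = 6), with log2 fold changes of 0.18 and 0.10 (limma adjusted p = 0.427 and 0.735). In flight they were at 15.2 ± 3.64 and 4.92 ± 1.71 TPM in WT mice and at 15.1 ± 3.95 and 5.84 ± 1.46 TPM in Nrf2-KO mice (limma adjusted p = 0.963 and 0.387). These near-identical genes can share reads. Cd4 and a pair of further chains, Cd247 and Trac, were singled out after their values were seen. Cd247, the zeta chain, was at 1.62 and 1.65 TPM in GC-WT and GC-KO mice and at 1.68 and 1.53 TPM in FL-WT and FL-KO mice, with adjusted p of 0.972 and 0.577 for Nrf2-KO against WT on the ground and in flight. Trac, the constant region of the alpha chain, was lower on the ground, with 5.28 ± 1.34 TPM for GC-WT and 2.97 ± 1.01 TPM for GC-KO mice (log2 fold change -0.67, SE 0.20, limma adjusted p = 0.00896), and in flight was at 3.93 ± 1.55 and 2.63 ± 0.733 TPM (-0.39, SE 0.20, limma adjusted p = 0.115). With the GC and length trend removed, Trac was at -1.02 (adjusted p = 0.00288) and -0.82 (adjusted p = 0.00552), a DEG on the ground and a call gained in flight. With median-of-ratios scaling, Trac alone of the 6 was lower on the ground (-0.39, adjusted p = 0.0293), against 28.9% of all genes lower and 28.3% higher. Cd247, Trbc1 and Trbc2 were then higher on the ground (0.20, 0.38 and 0.49, adjusted p = 0.0188, 0.0671 and 0.00377). In flight, 0 of the 6 were lower and 4 higher under that scaling (backgrounds 32.9% and 31.9%).

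Receptor signalling genes counted 9 of 15 lower on the ground and 10 of 15 in flight (backgrounds 42.9% and 47.2%). The most abundant were Lcp2, the adaptor SLP-76, which was also lower in both (log2 fold changes -0.69 and -0.83, limma adjusted p = 0.00484 and 0.000645), and Ptpn22, a phosphatase that restrains the receptor (-0.36 and -0.43, limma adjusted p = 0.0249 and 0.00563). With median-of-ratios scaling, Ptpn22 on the ground was at -0.062 (adjusted p = 0.667). Of the 15 signalling genes, 6 were then lower and 1 higher on the ground (backgrounds 28.9% and 28.3%). In flight 6 were lower and 2 higher (backgrounds 32.9% and 31.9%). With the GC and length trend removed, 8 were lower on the ground and 9 in flight (backgrounds 48.3% and 60.4%). Lcp2 is also used by myeloid cells and platelets. Of 7 tested T cell surface genes, 5 were lower on the ground and 3 in flight (backgrounds 42.9% and 47.2%). Il7r, the interleukin 7 receptor alpha chain, went from 7.20 ± 1.35 TPM in GC-WT to 3.82 ± 1.05 TPM in FL-WT mice (log2 fold change -0.78, limma adjusted p = 0.000403), and in marrow it is carried by B cell progenitors too. Cd2, an adhesion receptor, had a mean of 8.43 TPM in GC-WT and of 6.89 TPM in GC-KO mice (limma adjusted p = 0.204).

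Among transcription factors the counts lower in Nrf2-KO mice were 4 of 5 for T cells and 4 of 6 for NK and cytotoxic cells, in both settings. The backgrounds were 42.9% on the ground and 47.2% in flight. On the ground the NK and cytotoxic count included Eomes and Tbx21, which exceeded 1 TPM in FL-WT libraries only. Their pass of the filter thus depended on a WT group, and they are named for this reason. Neither passed the adjusted p on the ground with the GC and length trend removed (adjusted p = 0.130 and 0.150). Tcf7, which encodes TCF-1 of T cells and their progenitors, ran from 2.21 to 4.22 TPM in GC-WT and from 0.63 to 2.37 TPM in GC-KO mice, and in flight from 1.57 to 4.59 TPM and from 0.52 to 1.20 TPM. Its log2 fold change was -0.85 (limma adjusted p = 0.00104) on the ground and -1.08 (limma adjusted p = 3.28e-05) in flight, where it was a DEG, though short of 2-fold after median-of-ratios scaling (-0.89) or removal of the GC and length trend (-0.93). Zbtb7b, which encodes ThPOK of helper T cells, was a DEG in flight (-1.65, limma adjusted p = 1.32e-06). Runx3, a factor of cytotoxic T cells and NK cells, was a DEG on the ground (-1.13, limma adjusted p = 0.000454) and in flight (-1.27, limma adjusted p = 2.31e-05), but not with the GC and length trend removed (-0.78 and -0.81). Its TPM was 4.60 ± 1.31 and 1.61 ± 0.882 in GC-WT and GC-KO mice and 3.14 ± 1.60 and 0.642 ± 0.204 in FL-WT and FL-KO mice (SD, n = 6). Both Runx3 and Zbtb7b are also used by other blood cells.

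NK receptors and adaptors showed few calls, with 2 of 16 lower on the ground and 4 of 16 in flight (backgrounds 42.9% and 47.2%). The DEG among them was Il2rb, the chain that interleukins 2 and 15 share, in flight (log2 fold change -1.3, limma adjusted p = 2.76e-06), short of 2-fold at -0.93 with the GC and length trend removed. It ran from 3.19 to 7.36 TPM in FL-WT mice and from 1.08 to 2.15 TPM in FL-KO mice. All FL-KO mice were thus below all FL-WT mice, which held for 20.6% of all tested genes. With the GC content and length trend removed, 9 and 14 of the 16 were lower, against 48.3% and 60.4% of all genes under that setting. With median-of-ratios scaling 2 of the 16 were lower in both settings (backgrounds 28.9% and 32.9%). Under that scaling 5 on the ground and 4 in flight were higher (backgrounds 28.3% and 31.9%). Of the genes for interleukin 15 and interleukin 7 supply and signalling, 5 of 7 were lower on the ground and 4 of 7 in flight. The backgrounds were 42.9% and 47.2%. Il2rg, the common gamma chain of these receptors, was a DEG in both (-1.06 and -1.28, limma adjusted p = 0.000416 and 7.68e-06), and Stat5b, a factor that the receptors activate, was a DEG in flight (-1.10, limma adjusted p = 3.59e-05). Stat5b in flight was short of 2-fold after median-of-ratios scaling (-0.78) and after removal of the GC and length trend (-0.77), and Il2rg was short of it after median-of-ratios scaling (-0.75 on the ground and -0.95 in flight). Il2rg and Stat5b are widely used in blood cells.

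Of 8 tested cytotoxic effectors, 5 were lower in both settings (backgrounds 42.9% on the ground and 47.2% in flight). The DEG was Unc13d, which encodes Munc13-4, a protein that primes granules for release in lymphocytes and neutrophils, at 8.49 ± 3.20 TPM in FL-WT and 2.31 ± 0.338 TPM in FL-KO mice (log2 fold change -1.46, limma adjusted p = 1.85e-06), and it was short of 2-fold at -0.90 with the GC and length trend removed. Of 10 tested chemokine, cytokine and homing genes, 3 were lower in both settings, against the same backgrounds. Cx3cr1, a chemokine receptor of mature NK cells and monocytes, was the DEG in flight (-1.03, limma adjusted p = 0.00213), a call lost with median-of-ratios scaling (-0.79) and with the GC and length trend removed (-0.85).

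**Figure D5:**
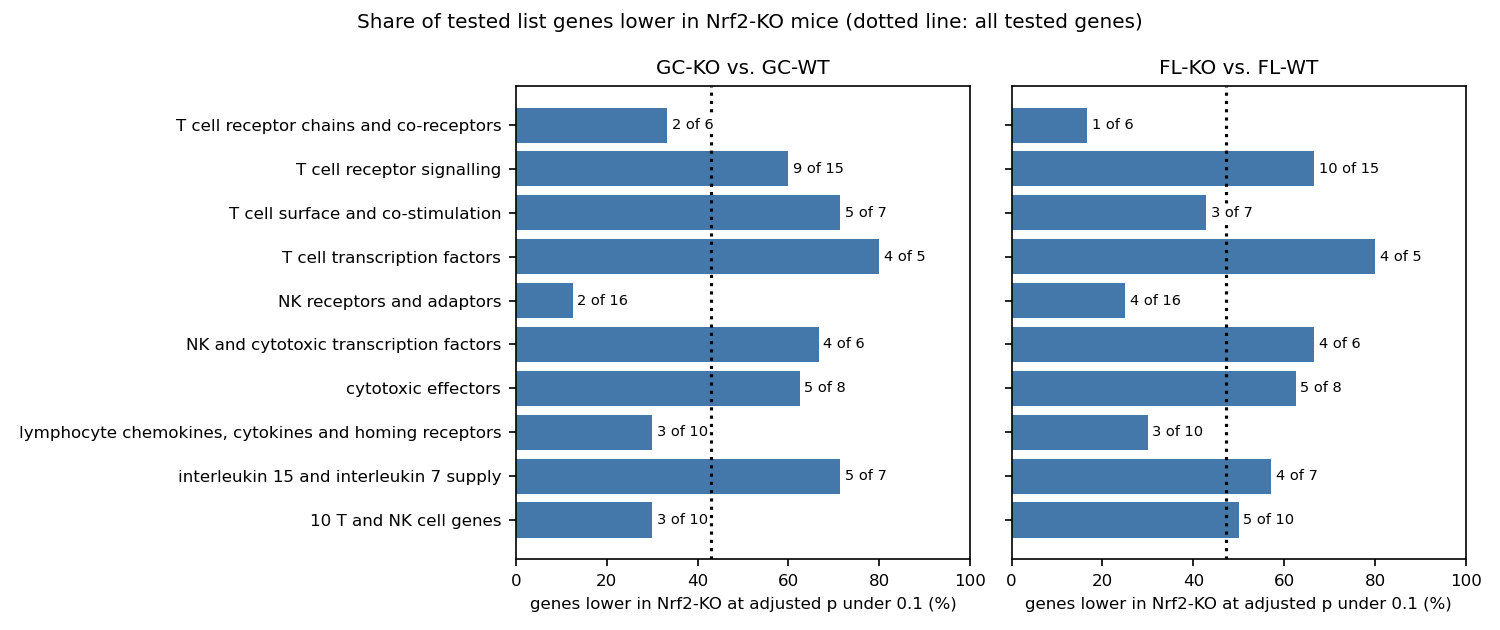
Share of tested genes of each list (horizontal axes, %) that were lower in Nrf2-KO mice at a limma adjusted p under 0.1, on the ground and in flight, with the counts beside the bars. Dotted lines mark the share among all tested genes. The 10 genes stand at 3 of 10 and 5 of 10, near or under lines at 42.9% and 47.2%, and NK receptors and adaptors at 2 of 16 and 4 of 16.

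Markers of other cells also moved between the groups, and their part in these results was not tested. The 8 neutrophil markers summed to means of 40524 and 56273 TPM in GC-WT and FL-WT and of 49738 and 55859 TPM in GC-KO and FL-KO mice, and the 6 erythroid markers to 96406 and 103058 TPM and to 125263 and 120250 TPM. Among the neutrophil markers, Ltf and Mpo, granule proteins, were DEGs that were lower in Nrf2-KO mice, with log2 fold changes of -1.62 and -1.72 on the ground and of -2.33 and -2.39 in flight (limma adjusted p from 9.88e-07 to 0.000416). By the adjusted p, 4 of the 8 neutrophil markers were lower and 2 higher on the ground (backgrounds 42.9% and 3.13%). In flight 5 were lower and 0 higher (backgrounds 47.2% and 1.91%). The 2 higher were S100a8 and S100a9, with log2 fold changes of 0.48 and 0.45 (limma adjusted p = 0.00675 and 0.0190). With the GC and length trend removed, these were -0.0199 and -0.0449 (adjusted p = 0.921 and 0.827). The 6 monocyte and macrophage markers summed to 381 to 504 TPM in GC-WT and 282 to 436 TPM in GC-KO mice, and to 334 to 603 TPM in FL-WT and 246 to 338 TPM in FL-KO mice. The 8 B lineage markers summed to 177 to 265 TPM in GC-WT and 124 to 186 TPM in GC-KO mice, and to 94.3 to 229.7 TPM in FL-WT and 79.6 to 128 TPM in FL-KO mice. The 6 markers of lymphoid progenitors and thymocytes summed to means of 22.8, 13.4, 11.8 and 6.83 TPM in the same order. Basophil and mast cell markers had means of 122 and 127 TPM in GC-WT and FL-WT against 81.6 and 79.6 TPM in GC-KO and FL-KO mice. Megakaryocyte markers were at 165 and 99.6 TPM in GC-WT and FL-WT and at 141 and 73.9 TPM in GC-KO and FL-KO mice, and plasmacytoid dendritic cell markers at 53.6 and 41.8 TPM and at 51.4 and 36.5 TPM. No marker of these lists was at 0 in all libraries.

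Mice of one group also varied together in these genes. After removal of the group means, 42 of the 45 pairs of the 10 genes had a positive Pearson correlation over 24 libraries, with a median of 0.547. The highest were those of Cd8a and Prf1 (0.851) and of Cd3e and Prf1 (0.836), and the lowest was that of Klrd1 and Ccl5 (-0.175). Most genes of these libraries varied together in this way, and all share the same libraries and scaling. The mean of the 4 T cell receptor genes had a median correlation of 0.716 with 10412 other genes, and that of the 6 cytotoxic genes 0.637. Among the 5 genes most like the T cell receptor genes were Dnajc14 (0.964), Arl4c (0.962), Neurl3 (0.9575) and Ralb (0.949). Those most like the cytotoxic genes were Rab31 (0.936), Prom1 (0.930), Cep19 (0.915), Acadsb (0.914) and Cept1 (0.9095).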

How the data were processed

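RNA-seq of bone marrow from 24 mice was analysed. The authors isolated RNA from cryopreserved cells, prepared libraries with a directional kit, used STAR 2.6.1 for mapping to mm10, and deposited TPM that RSEM 1.3.1 had estimated. TPM is a share of a library, so a change in abundant RNAs moves all other values, and depth is unknown. Groups came from the sample labels. Of 54752 identifiers, 54723 matched GENCODE M21 (GRCm38), which gave symbols, coordinates and the length and GC content of the longest transcript, for 12311 of 12373 tested genes. The upstream annotation is not given in the sources used here. Genes with TPM above 1 in at least 1 library were tested with limma 3.58.1 (R 4.3.3) after log2(TPM + 1), all libraries entering 1 fit of group means. For each of the 10 genes an exact permutation test (two-sided, on rank sums) was added. P-values measure the spread between mice. Other steps used Python 3.11.15, pandas 2.3.3, scipy 1.17.1 and matplotlib 3.10.9. The fit was tested on simulated data.

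The 10 genes, the lists and the motifs were chosen with earlier results of these data known. From each list of T and NK cell genes the text names its DEGs or, where there was none, its 2 most abundant genes; exceptions are stated. For the genes most like the T cell receptor genes and the cytotoxic genes, the 5 highest correlations among genes averaging 1 TPM or more were taken, of which 1 is not reported here. Alternatives concerned the pseudocount (0.1), the filter (none, or 6 libraries above 1 TPM), the scaling (median-of-ratios, quantile, or without 5 small RNAs), removal of the GC content and length trend, the thresholds (adjusted p under 0.05, or any fold change), the test (limma with a mean-expression trend, with only the compared groups, with a block for mouse number, or the rank sum test) and leaving out single libraries.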

Additional observations from a re-analysis of the deposited data

Results flagged for a closer look

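Klrd1 in FL-WT mouse 10 was at 4.84 TPM, far above the next FL-WT mouse at 3.43 TPM, and on the log2(TPM + 1) scale its gap to that mouse was 0.647 of the range of the group, above Dixon's 95% critical value for 6 samples. Chance flags about 1 in 20 groups, and this was 1 flag among 40 groups of a gene and 6 mice. On the TPM scale the gap was 0.695 of the range, and there were 2 flags, the other being Cd3d in GC-WT mouse 10, at 4.15 TPM against 2.59 TPM in the next mouse (0.627 of the range).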

How the results depend on the processing

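The counts of the 10 genes called as DEGs were 0 for flight against ground in either genotype, 0 for GC-KO vs. GC-WT, 0 for the interaction and 1 for FL-KO vs. FL-WT. With a pseudocount of 0.1 the count in GC-KO vs. GC-WT was 1, and with median-of-ratios scaling or quantile normalization the count in FL-KO vs. FL-WT was 0. The gene in question was Cd3e each time. With no minimum fold change the counts were 1 for flight in Nrf2-KO mice, and 4 on the ground and 5 in flight for Nrf2-KO against WT. Leaving out each library in turn gave counts of 0 to 1 in FL-KO vs. FL-WT, with 0 without FL-WT mouse 7 or mouse 8, and 0 to 0 in the other comparisons and the interaction. Prf1 had no value when TPM above 1 was required in 6 libraries.

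Directions turned, with an adjusted p under 0.1 before or after, for 5 genes, Cd8a, Nkg7, Gzma, Prf1 and Klrd1. With median-of-ratios scaling, the log2 fold change in FL-KO vs. GC-KO was 0.21 for Cd8a, 0.43 for Nkg7 and 0.39 for Gzma, and that of Nkg7 in FL-KO vs. FL-WT was 0.011. With quantile normalization it was 0.18 for Prf1 in FL-WT vs. GC-WT, whereas Cd8a, Nkg7 and Gzma had 0.29, 0.31 and 0.39 in FL-KO vs. GC-KO. With the GC content and length trend removed, it was -0.044 for Gzma and -0.59 for Klrd1 on the ground, and -0.38 for Gzma and -0.78 for Klrd1 in flight, in Nrf2-KO against WT mice. The median of all genes was then -0.26 on the ground and -0.33 in flight. The cause was not tested. Of the other values for single genes under an alternative, 1143 kept direction and side of the threshold, 34 lost and 55 gained the adjusted p, and 81 changed sign without passing the adjusted p on either side.

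Ground and flight mice share mouse numbers, but the numbers did not pair them: over 12 pairs, the correlation of deviations from the group means ran from -0.026 to 0.273, with 7 over 0.1, and 3 ground mice correlated best with their own number. With the number as a block the counts were 0 for flight in WT mice, 0 for flight in Nrf2-KO mice and 0 for the interaction. For Nrf2-KO against WT, no paired analysis was possible because the groups share no numbers. Depth was unknown, and Prf1 and, in Nrf2-KO mice, Cd3e and Cd8a were near or under 1 TPM, where the added 1 shrinks fold changes and counting error, which cannot be given, is largest relative to the value.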
